A study of Mus musculus with 12 samples.

Results

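The genes described here encode the contractile apparatus of smooth muscle and the actin-binding proteins that work with it. They are 32 genes chosen by name, all found among the 24692 entries of a table of expression values from mouse skin: actins, calponins, caldesmon, tropomyosins, myosin chains, the kinase and phosphatase regulators of myosin, filament organisers, crosslinkers and LIM domain proteins, 2 transcription regulators and a potassium channel subunit. For the account below, 20 of them were classed as enriched in smooth muscle and 12 as broadly expressed in many cell types.

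The study sorted 4 cell populations from the back skin of male Sox2:GFP/aSMA:dsRed mice at postnatal day 26 to 27, in early anagen, the start of a hair growth phase, with 3 RNA sequencing libraries per population. All mice carried both reporters, a green one driven by Sox2 and a red one driven by the promoter of smooth muscle actin, and the labels name no treatment or deletion in any group. The populations are hair follicle dermal stem cells (replicates 1, 2 and 4), dermal papilla (1, 2 and 4), dermal sheath (1, 4 and 5) and interfollicular dermis (1, 2 and 6). The labels state neither the sort gates nor how many animals went into a library, and 1 sheath library, here replicate 1, bears a different name stem (DSL) from the other sheath libraries (DS).

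In smooth muscle, calcium and calmodulin activate the myosin light chain kinase Mylk, which phosphorylates the regulatory light chain Myl9 and lets myosin filaments of Myh11 pull on filaments of Acta2 and Actg2. Calponin, caldesmon and tropomyosin sit along the actin filament, and desmin, alpha-actinin, filamin and vinculin anchor it to the cytoskeleton and the membrane. In the hair follicle, smooth muscle actin is a familiar marker of the connective tissue sheath, while arrector pili muscle and the walls of skin vessels also express these genes. Many of them are transcribed under the serum response factor Srf, which binds a motif called the CArG box, with the coactivator myocardin (Myocd).

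Because Srf acts through that motif, the 250 bases before each start listed for a gene in the RefSeq promoter table (GRCm38.p6) were searched for it. The motif has 10 bases, CC and GG around 6 bases that are all A or T, and reads the same on either strand. A listed start need not be the outer end of the gene. The Srf window lies inside the span of its gene (chr17:46546838-46558267), and the windows of Acta2, Myl9 and Vcl overlap the spans of theirs. A promoter was found for 28 of the 32 genes, and 5 of the 28 (17.9%) held a CArG box, against 439 of the 27025 genes in the RefSeq promoter table (1.62%), expressed or not. Actg2, Tagln, Myh11 and Myocd had no promoter listed there and were not searched. Sites that differed from the motif only by 1 G or C among the 6 central bases were held by 4 members, Myl9 among them (14.3%), and by 8.33% of the genes in that table. A match says only that the letters occur in this window. The promoters of 5 members whose levels are described below are shown 5′ to 3′, with CArG boxes and CArG-like sites in capitals.
Acta2: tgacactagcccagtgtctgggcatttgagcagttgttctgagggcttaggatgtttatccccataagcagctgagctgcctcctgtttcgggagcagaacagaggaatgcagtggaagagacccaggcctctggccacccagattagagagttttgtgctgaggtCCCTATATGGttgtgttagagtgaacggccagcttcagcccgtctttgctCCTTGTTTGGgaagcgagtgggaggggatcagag
Myl9: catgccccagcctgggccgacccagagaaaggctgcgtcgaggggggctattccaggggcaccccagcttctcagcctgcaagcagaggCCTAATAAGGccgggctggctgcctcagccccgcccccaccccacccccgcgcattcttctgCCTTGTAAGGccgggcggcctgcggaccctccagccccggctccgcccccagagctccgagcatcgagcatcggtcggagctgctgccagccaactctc
Cnn2: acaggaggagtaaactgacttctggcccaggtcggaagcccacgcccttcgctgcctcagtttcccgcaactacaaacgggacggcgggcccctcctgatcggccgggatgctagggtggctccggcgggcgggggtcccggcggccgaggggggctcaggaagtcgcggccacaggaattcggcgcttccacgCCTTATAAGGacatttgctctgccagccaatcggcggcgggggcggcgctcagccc
Vcl: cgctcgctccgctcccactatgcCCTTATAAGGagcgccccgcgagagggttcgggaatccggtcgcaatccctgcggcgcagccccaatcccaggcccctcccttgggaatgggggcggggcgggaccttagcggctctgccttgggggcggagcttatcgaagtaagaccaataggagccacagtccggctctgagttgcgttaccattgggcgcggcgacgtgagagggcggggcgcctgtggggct
Srf: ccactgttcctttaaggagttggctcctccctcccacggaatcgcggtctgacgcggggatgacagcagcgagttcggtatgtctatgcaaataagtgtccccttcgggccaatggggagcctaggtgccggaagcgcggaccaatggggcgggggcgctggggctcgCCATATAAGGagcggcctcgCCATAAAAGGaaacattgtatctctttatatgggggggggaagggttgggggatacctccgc
The Acta2 window lies on the minus strand at chr19:34255374-34255623 and holds 2 CArG-like sites, 84 to 75 and 34 to 25 bases before the start. That of Myl9 (plus strand, chr2:156775214-156775463) holds a CArG box 161 to 152 bases before the start and a CArG-like site 99 to 90 bases before it. In Cnn2 (plus strand, chr10:79988350-79988599) the box lies 56 to 47 bases before the start, and in Vcl (plus strand, chr14:20929148-20929397) 227 to 218 bases before it. The Srf window (minus strand, chr17:46556163-46556412) holds 2 boxes, 82 to 73 and 62 to 53 bases before the start. The fifth member with a box was Myl6.

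Values are FPKM, a measure of fragments that corrects for transcript length and library size, so levels of different genes can be set side by side where reads fall to a single gene. How reads shared by similar genes were assigned is not given in the sources used here, which limits the levels and family shares of paralogs. Differences are on the log2(FPKM + 1) scale from limma, given as the first population minus the second with the standard error (SE), and a gene was called at an adjusted p under 0.05 over the 12774 genes that reached 1 FPKM in at least 3 libraries. All 32 members passed that filter, but Lmod1, Myocd and Kcnmb1 only through the stem cells, their highest population: outside it each reached 1 FPKM in 1 papilla library. Acta2 drives the red reporter and may have been part of the sort, so its levels are a description and the counts of called members cover the other 31. Counts that rest on no test, and the sums over the genes enriched in smooth muscle, include Acta2. A sort on the reporter could also bear on other members expressed in the same cells as Acta2. The counts of called members may therefore depend on the sort, which was not tested. Whether the libraries of a population stem from different animals is not stated, and every p-value rests on the spread among these libraries, which may be technical.

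The sheath and interfollicular libraries went against their labels. The summed FPKM of 8 fibroblast markers, collagens and lumican among them, ran from 9120 to 11600 in stem cells and from 13160 to 23760 in papilla, but only from 970 to 1917 in sheath and from 824 to 1542 in interfollicular dermis. A list of 6 sheath genes, with Acan and Col11a1, summed to 10.6 to 19.1 in the sheath libraries and to 146 to 479 in the stem cell libraries. The libraries of these 2 populations also held more proliferation transcripts (6 genes, 180 to 337 in sum) than those of stem cells and papilla (11.1 to 50.4), and their keratinocyte markers summed to 1563 to 2516, against 814 to 1610 in stem cells and 1389 to 4104 in papilla. Their part in the results below was not tested. In these bulk samples, fewer cells of a type and less RNA per cell cannot be told apart.

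Contractile genes were highest in the dermal stem cells. Of the 32 members, Acta2 among them, 30 had their highest mean there, a share that was not taken over all genes. In 24 of the 32, all 3 stem cell libraries lay above the 9 others, as they did in 7.73% of all genes tested. The 3 members that passed the filter only through the stem cells are among the 30, and 1 of them, Lmod1, is among the 24. The 20 genes enriched in smooth muscle summed to 4238, 4612 and 4365 FPKM in stem cell replicates 1, 2 and 4, of which Acta2 gave 866, 901 and 850. The sums were 378 to 728 in papilla, 577 to 1098 in sheath and 226 to 277 in interfollicular dermis, so no other population overlapped the stem cells. The 12 broadly expressed genes summed to 537 to 564 in stem cells, 189 to 235 in papilla, 243 to 383 in sheath and 171 to 278 in interfollicular dermis.

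**Figure D1:**
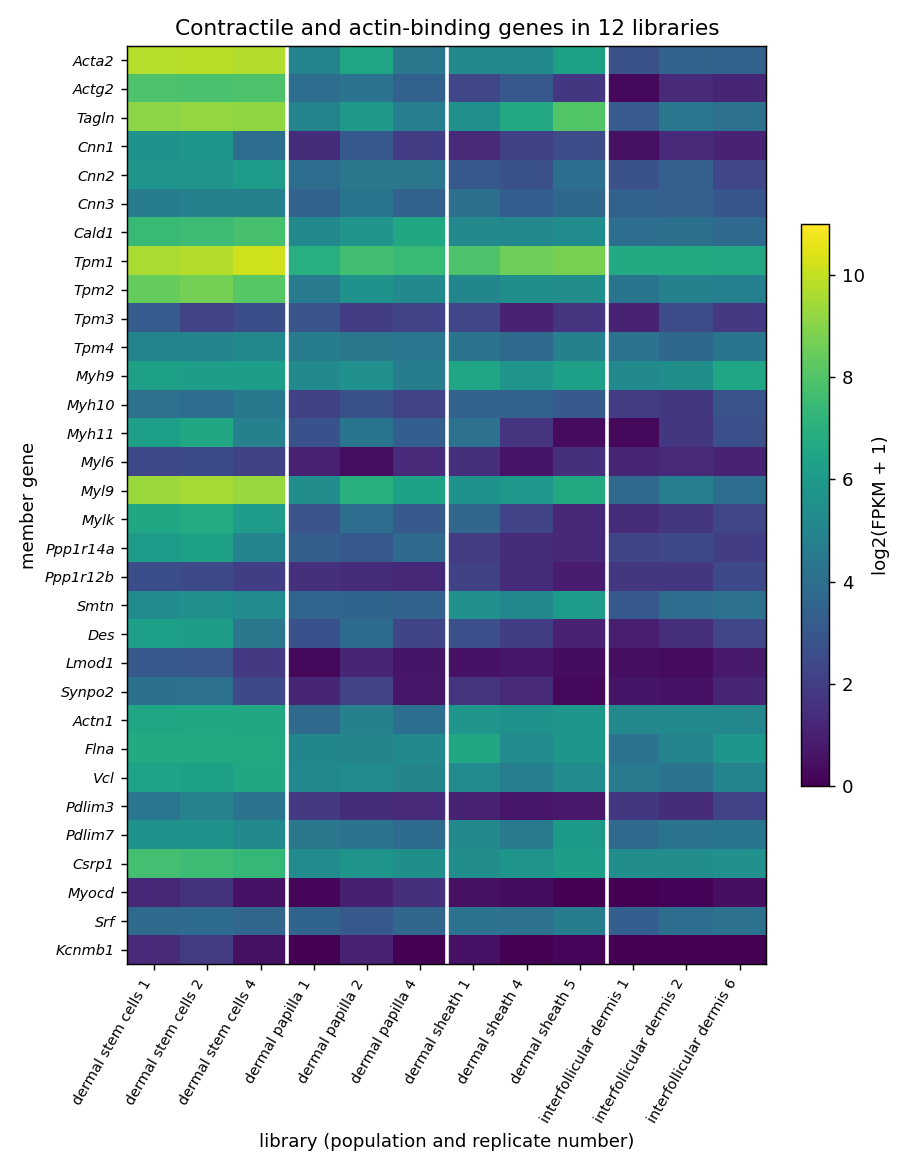
Heat map of the 32 genes (rows) in the 12 libraries (columns, population and replicate number), coloured by log2(FPKM + 1). The 3 stem cell columns are the brightest for 24 of the genes, while Srf, Smtn, Myh9 and Pdlim7 are about as bright in sheath.

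Against the papilla, 23 of the 31 members were higher in stem cells and none was lower, where 8.69% of all genes tested were called, 6.38% higher and 2.31% lower. At an unadjusted p under 0.05, 27 members were higher and 0 lower. The median member difference was 1.85, against 0.25 over all genes tested. When libraries were scaled by median of ratios, the median over all genes fell to 0.07, the calls over all genes changed from 815 higher and 295 lower to 524 and 444, and 22 members were still called, all higher. Of the genes enriched in smooth muscle 15 of 19 were called, with a median difference of 2.40, and of the broadly expressed genes 8 of 12, with a median of 1.30.

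The calls were unevenly firm. Actg2, Actn1, Csrp1, Myl9, Pdlim3, Tagln, Tpm1 and Tpm2 were called against the papilla under all alternatives run that tested them. Leaving out stem cell replicate 1 or replicate 2 left 17 calls among the 29 members then tested, and the stem cell replicate 4 alone gave 8 among 28, on the assumption that a lone library varies like the others. In that last fit the calls over all genes fell from 1110 to 131, of 12426 tested. Among the other settings, no filter ended the calls of Cnn3, Des, Synpo2 and Pdlim7 (adjusted p 0.050 to 0.071), and a fit of only the 6 libraries compared ended those of Cnn3, Myl6, Des, Lmod1 and Synpo2 (0.057 to 0.093). Quantile normalization ended those of Cnn3, Flna and Pdlim7 (0.052 to 0.098), and a pseudocount of 0.1 that of Synpo2 (0.076). The setting with replicate 4 alone was chosen after seeing the data, because the stem cell replicates 1 and 2 held far more immune and endothelial transcripts than replicate 4, as described below.

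Against the sheath, 23 of 31 members were higher in stem cells and none was lower, where 43.9% of all genes were called, 19.6% higher and 24.3% lower. By median of ratios 26 members were higher and none lower, while the calls over all genes turned from 2502 higher and 3105 lower to 3007 and 2008. At an unadjusted p under 0.05, 27 were higher and 1, Srf, was lower. Against the interfollicular dermis, 26 of 31 were higher and none was lower, where 37.6% of all genes were called, 17.9% higher and 19.7% lower. At an unadjusted p under 0.05, 27 members were higher there and 0 lower. Together, 20 of 31 members were higher in stem cells than in each of the other 3 populations, as were 3.53% of all genes tested. Lmod1 is among these 20 and among the calls against papilla, sheath and interfollicular dermis. Kcnmb1 is among the calls against sheath and interfollicular dermis. Both genes passed the filter only through the stem cells, where they are high. No member was higher than in each of the others in papilla, sheath or interfollicular dermis, as 1.35%, 0.532% and 0.587% of all genes were. The 3 comparisons share the stem cell libraries. Over all 4 populations, the F test called 26 of the 31 members and 56.8% of all genes, and it did not call Tpm3, Myh9, Ppp1r12b, Myocd and Kcnmb1.

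**Figure D2:**
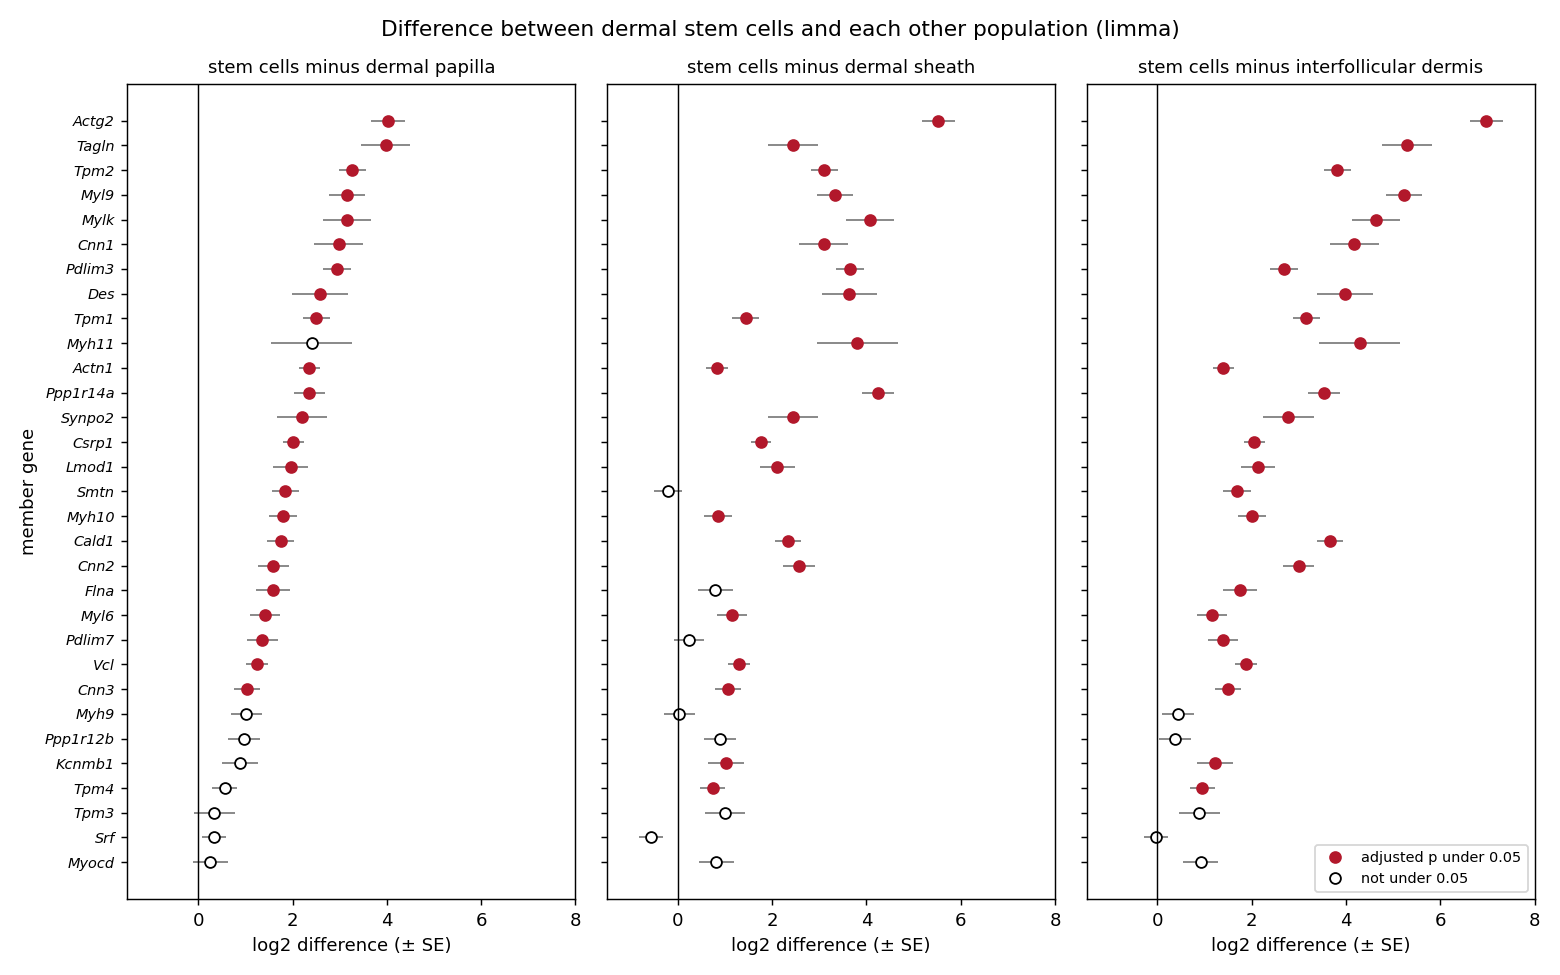
Difference on the log2(FPKM + 1) scale (x axis) between stem cells and papilla, sheath or interfollicular dermis for the 31 members other than Acta2 (y axis), with SE bars and filled points where the adjusted p was under 0.05. Filled points number 23, 23 and 26, and all lie to the right of 0.

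The smooth muscle actins had the widest range of level. Acta2 (chr19:34240336-34255585, minus strand), which encodes alpha smooth muscle actin, stood at 866, 901 and 850 FPKM in stem cell replicates 1, 2 and 4. In papilla it was at 29.4, 86.4 and 20.5, in sheath at 35.8, 36.2 and 76.0 for replicates 1, 4 and 5, and in interfollicular dermis at 5.72, 10.4 and 9.95. All stem cell libraries lay far above all others, and the papilla and sheath ranges overlapped.

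Actg2 (chr6:83512909-83536251), the enteric smooth muscle actin, was at 240, 228 and 239 FPKM in stem cells and at 14.9, 17.2 and 9.72 in papilla. In sheath it was at 4.06, 7.19 and 2.31 and in interfollicular dermis at 0.190, 1.54 and 1.19. The 4 populations did not overlap for this gene. Stem cells exceeded papilla by 4.02 (SE 0.35, adjusted p = 5.6e-05) on the log2 scale, sheath by 5.52 (SE 0.35, adjusted p = 5.3e-07) and interfollicular dermis by 6.98 (SE 0.35, adjusted p = 1.2e-07).

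Actins of other cells and muscles were measured beside them. Actb, the cytoplasmic beta actin, was at 301, 266 and 202 FPKM in stem cells and at 125, 121 and 80.3 in papilla, a difference of 1.24 that was not called (SE 0.41, adjusted p = 0.081). Sheath replicate 5 had 212 FPKM of Actb, above stem cell replicate 4. Actg1, the cytoplasmic gamma actin, was listed at 0.210 FPKM or less in every library. Actins of skeletal and cardiac muscle stayed low, with Acta1 at 4.45 or less and Actc1 at 1.15 or less. Since actin genes share much of their coding sequence, reads may have been split between them in a way that the sources used here do not give.

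Among the calponin family and caldesmon, all 5 tested genes were higher in stem cells than in papilla, in sheath and in interfollicular dermis. Tagln (chr9:45929628-45936058), transgelin, binds actin filaments and was at 547, 600 and 584 FPKM in stem cells and at 29.4, 60.9 and 25.4 in papilla. The sheath values of 44.8, 99.6 and 258 for replicates 1, 4 and 5 spread widely, and interfollicular dermis was at 8.01, 19.0 and 16.9. Stem cells exceeded papilla by 3.97 (SE 0.53, adjusted p = 0.00086), and sheath by 2.44 (SE 0.53, adjusted p = 0.0027), with no overlap.

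Cnn1, the calponin of differentiated smooth muscle, was at 48.3, 54.5 and 14.8 FPKM in stem cells and at 1.70, 7.10 and 2.98 in papilla. Its stem cell replicate 4 was thus nearer to the highest papilla library than to the other stem cell libraries, though still above it. The difference from papilla was 2.98 (SE 0.52, adjusted p = 0.0044). Sheath was at 1.57 to 4.93 and interfollicular dermis at 0.42 to 1.47.

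Many cell types express the paralogs of Cnn1. Cnn2 was at 52.8, 51.3 and 64.4 FPKM in stem cells, 14.8 to 19.7 in papilla, 5.71 to 15.1 in sheath and 4.14 to 9.47 in interfollicular dermis. Its difference between stem cells and papilla was 1.60 (SE 0.33, adjusted p = 0.011). Cnn3 was at 24.4 to 27.3 in stem cells and at 9.70 to 18.4 in papilla, a difference of 1.03 (SE 0.27, adjusted p = 0.036). The Cnn3 call was lost on leaving out stem cell replicate 1, 2 or 4, papilla replicate 1 or 4, or sheath replicate 5 (adjusted p from 0.050 to 0.113). It was also lost by median of ratios (0.073). A fit of only the 6 libraries compared ended it without (0.081) and with (0.062) the replicate number as a block. Cald1, caldesmon, which restrains myosin binding to actin, was at 170, 185 and 224 in stem cells, 36.6, 53.0 and 91.5 in papilla, 34.0 to 40.4 in sheath and 12.5 to 15.9 in interfollicular dermis (difference from papilla 1.75, SE 0.28, adjusted p = 0.0027).

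Tropomyosins wind along the actin filament and come from 4 genes, of which Tpm1 and Tpm2 supply the smooth muscle forms. Tpm1, the most abundant member, was at 788, 856 and 1172 FPKM in stem cells, 119, 201 and 176 in papilla, 240, 381 and 428 in sheath and 99.6 to 105 in interfollicular dermis. Stem cells exceeded papilla by 2.51 (SE 0.29, adjusted p = 0.00030). The sheath libraries all lay above the papilla libraries and below the stem cell libraries.

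Tpm2 (chr4:43513726-43523583) was at 339, 419 and 282 FPKM in stem cells against 22.6, 48.5 and 37.6 in papilla, 31.8 to 44.1 in sheath and 18.3 to 27.3 in interfollicular dermis. The difference from papilla was 3.27 (SE 0.28, adjusted p = 5.6e-05), and the papilla and sheath ranges overlapped. Tpm3 and Tpm4 are the more widely expressed genes of the family. Tpm4 was at 29.4 to 34.2 in stem cells and at 19.0 to 24.0 in papilla (difference 0.56, SE 0.26, adjusted p = 0.20, not called). Against the sheath Tpm4 was called (0.74, SE 0.26, adjusted p = 0.035), but not on leaving out stem cell replicate 1, 2 or 4 or sheath replicate 1 or 4 (0.064 to 0.146). Its difference from interfollicular dermis (0.95, SE 0.26, adjusted p = 0.012) was lost without interfollicular replicate 2 (0.055). Tpm3 was at 8.22 or less in every library and overlapped in all 4 populations (stem cells minus papilla 0.34, SE 0.43, adjusted p = 0.66).

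**Figure D3:**
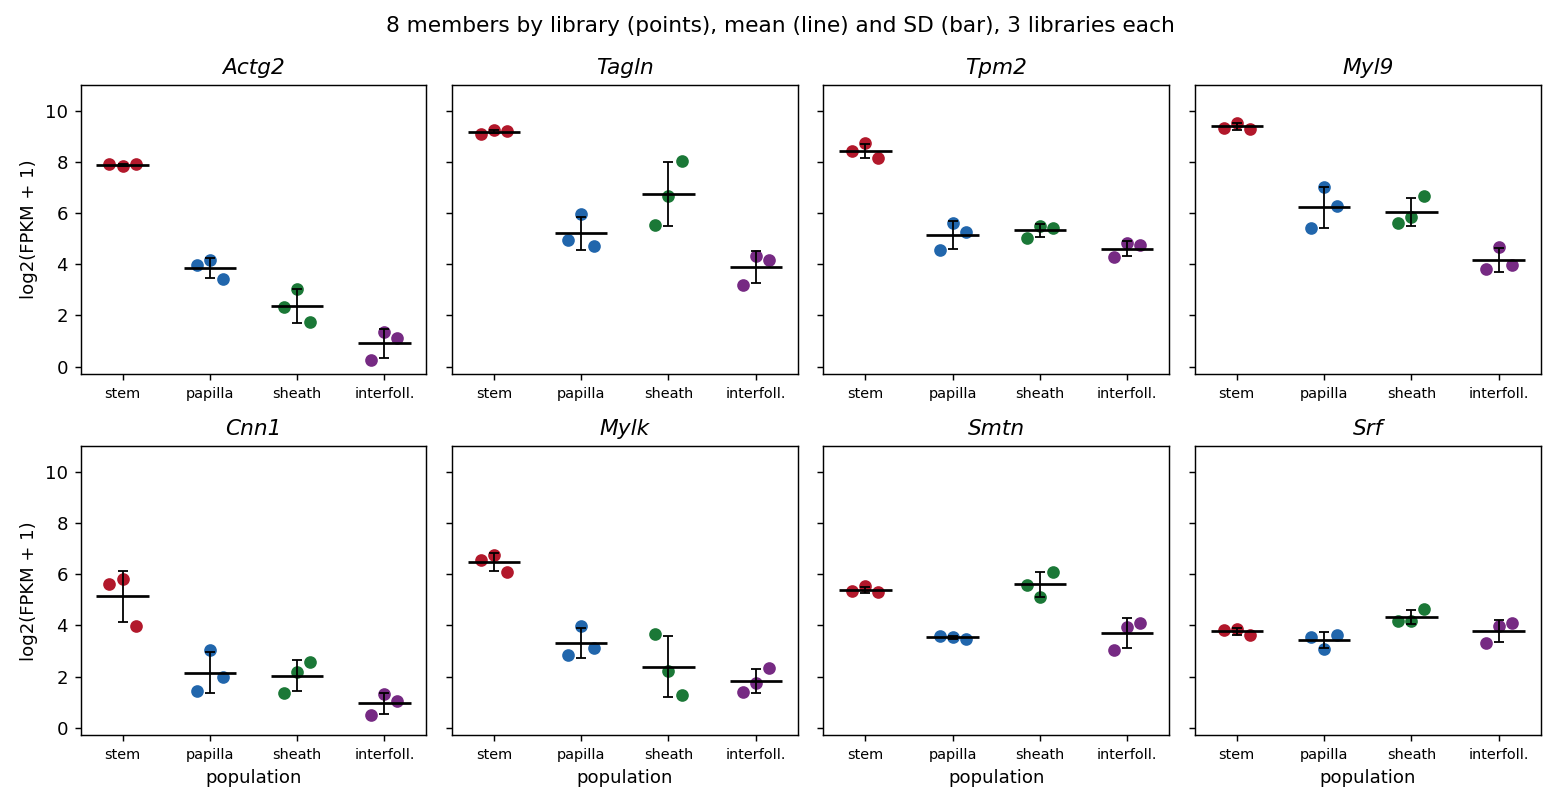
log2(FPKM + 1) of 8 members (panels) by population (x axis), with 1 point per library, the mean as a line and the SD over 3 libraries as a bar. In Actg2, Tagln, Tpm2, Myl9, Cnn1 and Mylk the stem cell points lie above all others, while Smtn is as high in sheath and Srf is highest there.

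Among the myosin chains, Myl9 (chr2:156775408-156781657), the regulatory light chain of smooth muscle, was at 640, 735 and 628 FPKM in stem cells. Papilla was at 41.4, 127 and 76.6, sheath at 48.1, 57.0 and 101, and interfollicular dermis at 13, 24.7 and 14.8. Stem cells exceeded papilla by 3.15 (SE 0.39, adjusted p = 0.00051), and papilla and sheath overlapped. Myl6, the essential light chain, was listed at only 4.53 FPKM or less in all libraries, with 3.48 to 4.53 in stem cells and 0.34 to 1.55 in papilla. Its difference of 1.42 from papilla (SE 0.32, adjusted p = 0.017) was lost without stem cell replicate 1 or 2 or papilla replicate 2 (0.054 to 0.068). A fit of only the 6 libraries compared also ended this call of Myl6, without (0.057) and with (0.076) the replicate number as a block. Its calls against sheath (1.14, SE 0.32, adjusted p = 0.012) and interfollicular dermis (1.16, SE 0.32, adjusted p = 0.013) were lost without sheath replicate 4 (0.054) and with the block (0.058), respectively.

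Myh11, the myosin heavy chain of smooth muscle, was at 73.6, 92.8 and 26.4 FPKM in stem cells and at 5.92, 18.5 and 8.63 in papilla. The groups did not overlap, but the spread was wide, and the difference of 2.40 (SE 0.86) was not called (adjusted p = 0.10). With the replicate number as a block it was called (adjusted p = 0.036), as it was without sheath replicate 1 (0.045). Sheath was at 16.6, 2.22 and 0.23 in replicates 1, 4 and 5 and interfollicular dermis at 0.19, 2.40 and 5.35, and both were called lower than stem cells (3.81, SE 0.86, adjusted p = 0.0036; and 4.29, SE 0.86, adjusted p = 0.0022).

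The nonmuscle heavy chains Myh10 and Myh9 are expressed in most cells. Myh10 was at 14.6 to 21.0 FPKM in stem cells, 3.45 to 5.60 in papilla, 7.63 to 9.88 in sheath and 2.41 to 6.21 in interfollicular dermis (stem cells minus papilla 1.80, SE 0.30, adjusted p = 0.0035). Its difference from sheath (0.86, SE 0.30, adjusted p = 0.035) was lost on leaving out any 1 of the 3 sheath libraries or stem cell replicate 1 or 4 (0.059 to 0.120), and with the replicate number as a block (0.074). Myh9 was at 68.5 to 76.2 in stem cells, 23.8 to 46.2 in papilla, 52.6 to 87.7 in sheath and 37.0 to 88.8 in interfollicular dermis, and was called in none of the 3 comparisons with stem cells (differences 1.02, 0.03 and 0.44). Without interfollicular replicate 6, which held the highest value of Myh9, the difference from papilla was called (adjusted p = 0.032), and with the replicate number as a block so was that from interfollicular dermis (0.99, adjusted p = 0.013).

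Within families, the smooth muscle gene took its largest mean share in stem cells, though unevenly over the libraries. Cnn1 made up 38.5%, 40.9% and 14.0% of the summed FPKM of the 3 calponin genes in stem cell replicates 1, 2 and 4, with a mean of 31.2% ± 14.9 (SD, n = 3). It made up 10.5% ± 4.84 in papilla, 13.7% ± 6.66 in sheath and 6.32% ± 3.34 in interfollicular dermis (SD, n = 3 each), and the stem cell replicate 4 fell within the ranges of papilla and sheath. Myh11 took 44.2%, 52.5% and 22.8% of the 3 heavy chains in stem cells, 12.6%, 26.3% and 23.9% in papilla, 14.6%, 3.44% and 0.290% in sheath and 0.485%, 4.98% and 5.33% in interfollicular dermis. Stem cell replicate 4 thus lay below 2 of the papilla libraries. Tpm1 and Tpm2 together made up 97.2% ± 0.401 of the tropomyosins in stem cells and 88.2% ± 5.09 in papilla (SD, n = 3 each), with no overlap between them. The share was 94.6% ± 2.09 in sheath and 87.2% ± 1.74 in interfollicular dermis (SD, n = 3 each), and sheath replicate 4 (96.8%) lay above stem cell replicate 1 (96.7%).

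**Figure D4:**
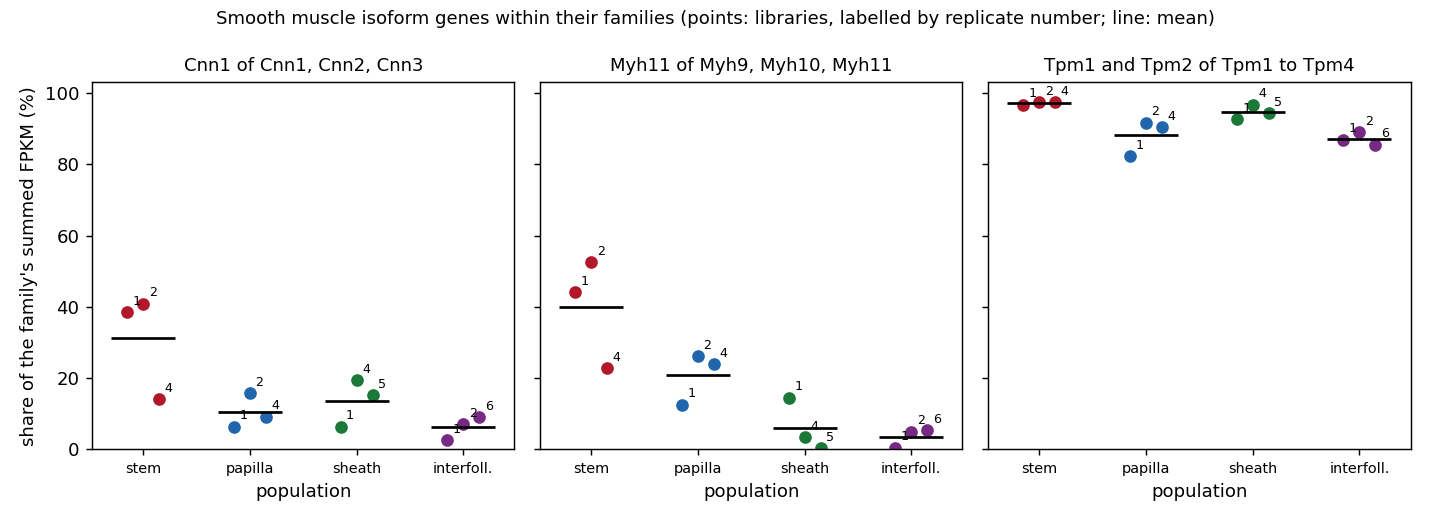
Share (%) of the smooth muscle genes in the summed FPKM of their family, for calponins, myosin heavy chains and tropomyosins (panels), by population (x axis), with points labelled by replicate number and the mean as a line. In the first 2 panels stem cell replicates 1 and 2 stand above all other libraries, while replicate 4 lies among those of papilla or sheath.

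The regulators of myosin phosphorylation were split. Mylk, the kinase that starts contraction, was at 92.8, 107 and 66.0 FPKM in stem cells and at 6.08, 14.6 and 7.76 in papilla (difference 3.15, SE 0.51, adjusted p = 0.0028). Ppp1r14a, also called CPI-17, inhibits myosin phosphatase and was at 66.3, 75.9 and 30.1 in stem cells, 8.99, 7.72 and 12.7 in papilla, 1.40 to 2.76 in sheath and 2.99 to 4.43 in interfollicular dermis. It was higher in stem cells than in papilla (2.36, SE 0.34, adjusted p = 0.0014) and than in sheath (4.25, SE 0.34, adjusted p = 2.3e-06). Ppp1r12b, a targeting subunit of that phosphatase, was at 3.12 to 5.28 in stem cells and 1.40 to 1.84 in papilla and was not called (0.98, SE 0.34, adjusted p = 0.095), and its interfollicular values of 2.44 to 4.39 overlapped those of stem cells.

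Of the filament organisers, Des, Lmod1 and Synpo2 were alike in their values. Des, the muscle intermediate filament desmin, was at 72.3, 69.7 and 19.3 FPKM in stem cells and at 5.85, 13.7 and 3.93 in papilla (difference 2.58, SE 0.59, adjusted p = 0.019). Lmod1, leiomodin, which nucleates actin filaments, was at 7.57, 6.91 and 2.57 in stem cells and at 1.29 or less in papilla (1.96, SE 0.37, adjusted p = 0.0068), a gene that passed the filter only through the stem cells. Synpo2, which binds alpha-actinin and filamin, was at 15.9, 16.6 and 4.46 in stem cells and at 1.28, 3.70 and 0.57 in papilla (2.19, SE 0.53, adjusted p = 0.024).

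In all 3, stem cell replicate 4 was the lowest of its population. The calls against papilla of Des and Synpo2 were lost without stem cell replicate 1 or 2 or papilla replicate 1, and that of Synpo2 also without papilla replicate 4 (adjusted p 0.057 to 0.10). The Lmod1 call was lost in a fit of only the 6 libraries compared, without (0.059) and with (0.054) the replicate number as a block.

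Smtn, smoothelin, did not follow the others. It was at 39.1, 45.1 and 38.4 FPKM in stem cells, 11, 10.7 and 10.02 in papilla and 7.20 to 16.2 in interfollicular dermis. In sheath it was at 46.6, 33.6 and 67.5 for replicates 1, 4 and 5. Sheath replicate 4 lay below the stem cell range and sheath replicates 1 and 5 above it. Stem cells exceeded papilla by 1.85 (SE 0.30, adjusted p = 0.0027), whereas stem cells minus sheath was -0.21 (SE 0.30, adjusted p = 0.59).

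Among crosslinkers and proteins of the adhesion plaque, all 3 were higher in stem cells than in papilla. Actn1, alpha-actinin, which bundles actin filaments, was at 89.2 to 96.3 FPKM in stem cells, 13.1 to 26.4 in papilla, 48.6 to 55.2 in sheath and 33.2 to 36.1 in interfollicular dermis. The 4 populations did not overlap, and papilla was the lowest (stem cells minus papilla 2.36, SE 0.23, adjusted p = 0.00012). Vcl, vinculin, which ties actin to adhesions, was at 76.0 to 94.6 in stem cells and 31.2 to 39.3 in papilla (1.25, SE 0.24, adjusted p = 0.0071). Flna, filamin A, was nearly level over the stem cell libraries at 103.3, 103.4 and 102.7 and was at 31.6 to 37.5 in papilla (1.59, SE 0.36, adjusted p = 0.018), a call lost without stem cell replicate 1 or 2 or papilla replicate 1 (0.053 to 0.062). Sheath replicate 1 had 93.4 FPKM of Flna, close to the stem cells, and the difference from sheath was not called (0.80, SE 0.36, adjusted p = 0.092).

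LIM domain proteins link the filament to signalling and to the Z line or dense body. Pdlim3, the form of muscle, was at 19.0, 28.1 and 17.9 FPKM in stem cells and at 3.67 or less in the 9 other libraries (stem cells minus papilla 2.94, SE 0.29, adjusted p = 0.00013). Csrp1, which binds alpha-actinin and zyxin, was at 161 to 206 in stem cells and at 39.0 to 71.1 elsewhere (2.02, SE 0.22, adjusted p = 0.00022). Pdlim7 was at 36.0 to 49.7 in stem cells and 13.3 to 19.5 in papilla (1.36, SE 0.32, adjusted p = 0.022), and this call was lost without stem cell replicate 1 or 2 or papilla replicate 4 (0.050 to 0.082). In sheath Pdlim7 reached 63.5 in replicate 5, above all stem cell libraries (stem cells minus sheath 0.24, SE 0.32, adjusted p = 0.58).

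Of the 2 transcription regulators, Srf had its highest mean in sheath. Myocd had its highest mean in stem cells, but with overlap with papilla and at low values. Srf was at 13.1, 13.5 and 11.2 FPKM in stem cells, 10.8, 7.38 and 11.4 in papilla, 17.0, 16.9 and 24.1 in sheath and 8.87 to 16.0 in interfollicular dermis. Every sheath library was above every stem cell library, yet neither this difference (stem cells minus sheath -0.57, SE 0.26, adjusted p = 0.092) nor that from papilla (0.34, SE 0.26, adjusted p = 0.44) was called. Myocd was at 1.31, 2.05 and 0.45 in stem cells and at 0.10, 0.94 and 1.80 in papilla, with overlap (0.26, SE 0.37, adjusted p = 0.70), and at 0.43 or less in sheath and interfollicular dermis. Neither of these 2 genes was called in any comparison with stem cells, where 1 had an unadjusted p under 0.05 in each direction against sheath and 1 was higher against interfollicular dermis.

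Kcnmb1, the beta subunit of the calcium-activated potassium channel of smooth muscle, was at 1.47, 2.82 and 0.43 FPKM in stem cells, at 1.04 in papilla replicate 2 and at 0.46 or less in the other 8 libraries. It passed the filter only through the stem cells and was not called against papilla (0.90, SE 0.38, adjusted p = 0.17). The calls against sheath (1.01, SE 0.38, adjusted p = 0.047) and interfollicular dermis (1.22, SE 0.38, adjusted p = 0.024) were lost on leaving out any 1 sheath library or any 1 interfollicular library, respectively, and the first also on leaving out papilla replicate 1 or any 1 interfollicular library (0.050 to 0.123). With the replicate number as a block the call against sheath was also lost (0.161).

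Among stem cell libraries, 8 members stood apart from the rest. In Cnn1, Myh11, Ppp1r14a, Des, Lmod1, Synpo2, Myocd and Kcnmb1, replicate 4 was under 0.5 of the mean of replicates 1 and 2, with ratios from 0.199 to 0.424. That is 25% of the members, against 12.5% of the 11601 tested genes that averaged at least 1 FPKM in replicates 1 and 2. The ratio was chosen after seeing these values, and all 8 belong to the genes classed as enriched in smooth muscle. Of the 8, Lmod1, Myocd and Kcnmb1 passed the filter only through the stem cells. Myocd and Kcnmb1 reached 1 FPKM in stem cell replicates 1 and 2 but not in replicate 4 (0.449 and 0.427). Their low ratios are thus partly set by the filter. In the same libraries Acta2 (ratio 0.962), Actg2 (1.02), Tagln (1.02) and Myl9 (0.914) were nearly level, and Tpm1 was higher in replicate 4 (1.43).

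Some lists of cell type markers were lower in stem cell replicate 4, as these 8 genes were, and others were not. The 8 endothelial markers summed to 101, 79.7 and 25.7 FPKM in stem cell replicates 1, 2 and 4, and the 6 immune markers to 1066, 620 and 42.2, with 7 of 8 and 6 of 6 below the ratio of 0.5. The 10 markers of pericytes and vessel wall cells summed to 162, 160 and 140, and 4 of them, Kcnj8, Rgs4, Abcc9 and Higd1b, were below that ratio (0.177 to 0.471). The rest of the 10 had ratios from 0.573 (Notch3) to 1.11 (Cspg4). The fibroblast markers summed to 9213, 9120 and 11600 and the 6 sheath genes to 146, 189 and 479, both highest in replicate 4. Itga8, an integrin subunit of arrector pili muscle, was at 18.7, 22.1 and 23.9. It is 1 of 9 measured genes of the muscle membrane complex, which summed to 117, 129 and 123. Of these, 9, 9 and 7 reached 1 FPKM in replicates 1, 2 and 4. The 12 markers of striated muscle summed to 6.53 to 15.3. The part of these cells in the spread of the 8 genes was not tested.

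**Figure D5:**
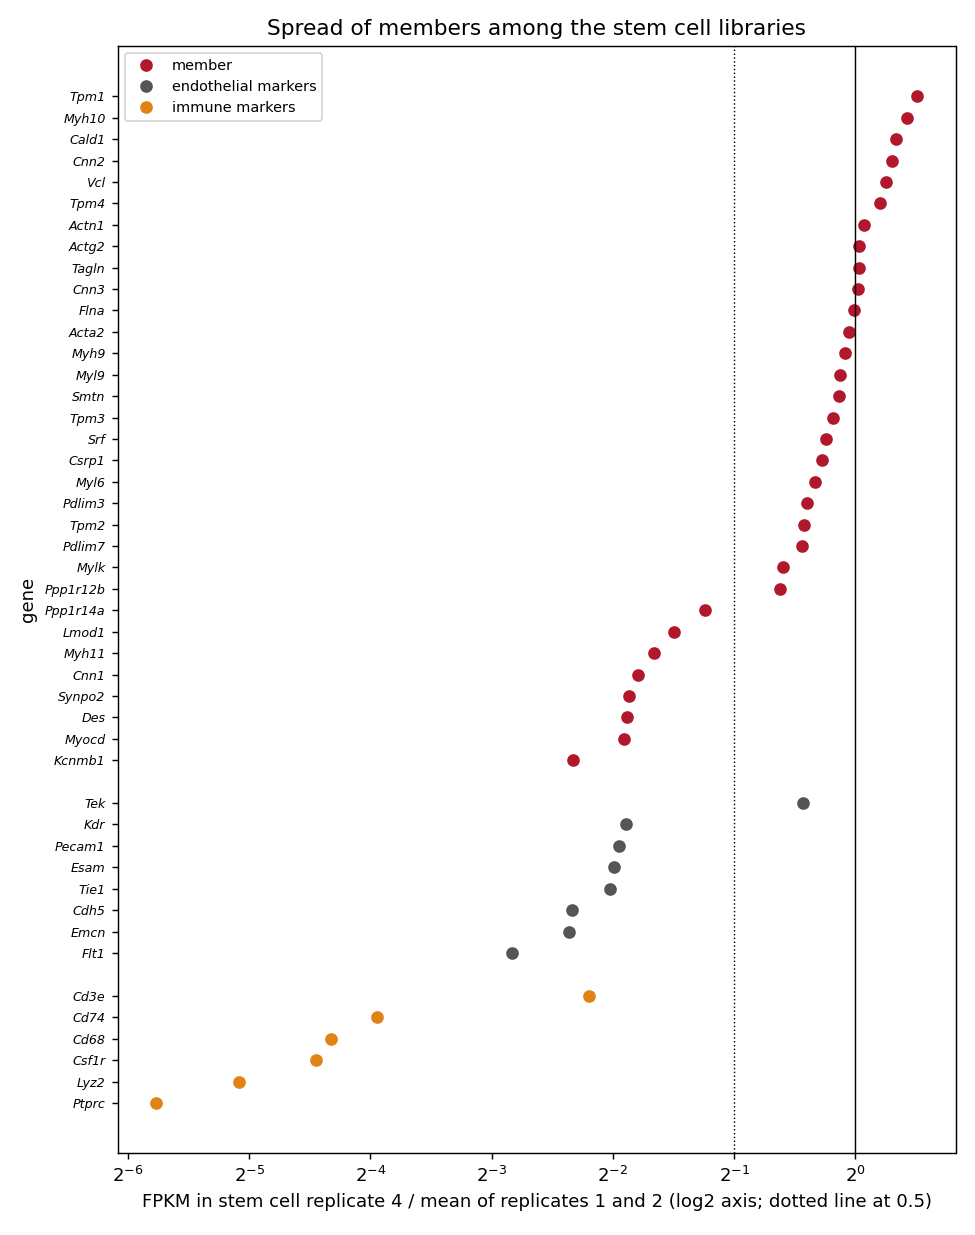
FPKM in stem cell replicate 4 divided by the mean of replicates 1 and 2 (x axis, log2 scale) for the 32 members, 8 endothelial and 6 immune markers (y axis), with a solid line at 1 and a dotted line at 0.5. There are 8 members to the left of the dotted line, at ratios between 0.199 and 0.424, and the others run up to 1.43.

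Papilla libraries also differed. Replicate 2 was the highest papilla library in 19 of the 32 members, for example in Acta2, Tagln and Myl9 as given above. The share over all genes was not taken. Its scaling factor by median of ratios (0.886) was also above those of papilla replicates 1 (0.775) and 4 (0.798). The endothelial markers summed to 92.7, 146 and 14.9 in papilla replicates 1, 2 and 4 and the pericyte and vessel wall markers to 124, 120 and 60.7, and their part in this spread was not tested. When papilla replicate 4 alone stood for the population, a setting added after seeing the data, 19 of the 30 members then tested were called against stem cells, all higher in stem cells.

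Between papilla and sheath, 11 of 31 members were called: 3 higher in papilla and 8 higher in sheath, where 49.8% of all genes were called, 16.4% and 33.4% in these directions. The median of the members was 0.11, against -0.36 over all genes tested. By median of ratios, which brought that median to 0.06 and turned the calls over all genes from 2094 and 4271 to 3036 and 2340, the members split into 7 higher in papilla and 2 higher in sheath. Only Ppp1r14a (papilla minus sheath 1.89, SE 0.34, adjusted p = 0.00066), Smtn (-2.06, SE 0.30, adjusted p = 0.00014) and Actn1 (-1.54, SE 0.23, adjusted p = 0.00020) were called under all alternatives run.

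Of the others, Actg2 (1.5, adjusted p = 0.0039) and Cnn2 (0.97, adjusted p = 0.027) were higher in papilla, and Tagln (-1.53), Tpm1 (-1.07), Pdlim7 (-1.12), Myh9 (-0.99), Myh10 (-0.95) and Srf (-0.91) were higher in sheath, with adjusted p from 0.0083 to 0.029. These last 6 calls were all lost by median of ratios (0.131 to 0.276). The Tagln call was also lost without papilla replicate 1 or 4 or sheath replicate 4 or 5 (0.059 to 0.135), Cnn2 without papilla replicate 2 or 4 or sheath replicate 1 or 4 (0.065 to 0.114), and Myh9 without papilla replicate 4 or sheath replicate 1 or 5 (0.068 to 0.097). Myh10 was lost without papilla replicate 1 or sheath replicate 1 or 4 (0.056 to 0.065), Pdlim7 and Srf without sheath replicate 5 (0.057 and 0.055), and Srf also with the replicate number as a block (0.065). Without sheath replicate 5 the count of calls was 7, and with papilla replicate 4 alone it was 6.

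Sheath libraries held the members in different proportions. Replicate 5 was the highest sheath library in 14 members, among them Acta2, Tagln, Myl9, Smtn and Pdlim7, and replicate 1 in 15, among them Myh11, Mylk and Des. These shares were not taken over all genes. For Mylk the values were 11.6, 3.70 and 1.41 in replicates 1, 4 and 5, and for Des 5.41, 3.15 and 1.04, the reverse of Tagln. The pericyte and vessel wall markers summed to 109, 43.8 and 46.5 in these replicates, with Rgs5 at 58.2, 11 and 1.71, and the endothelial markers to 37.8, 62.0 and 9.13. Their part was not tested.

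Interfollicular dermis had the lowest mean of the 4 populations in 23 of the 32 members, a share that was not taken over all genes. Papilla was higher than interfollicular dermis in 7 of 31 members and lower in 1, where 42.3% of all genes were called, 13.7% and 28.6% in these directions. The higher ones were Actg2 (2.96, SE 0.35, adjusted p = 6.1e-05), Myl9 (2.07), Cald1 (1.91), Mylk (1.48), Cnn2 (1.40), Ppp1r14a (1.17) and Vcl (0.63), and Actn1 was lower (-0.96). By median of ratios 14 members were higher and none lower, while the calls over all genes turned from 1746 higher and 3654 lower to 2554 and 2101. With the replicate number as a block 12 members were higher and 1 lower, and over all genes 2099 and 3376. The 5 members gained with the block were Tagln (1.48, adjusted p = 0.0096), Cnn1 (1.45, adjusted p = 0.042), Myh11 (2.93, adjusted p = 0.0031), Des (2.22, adjusted p = 0.0014) and Synpo2 (1.15, adjusted p = 0.043). The Vcl call was lost on leaving out any of 9 libraries (adjusted p 0.052 to 0.170), namely all 3 stem cell libraries, papilla replicates 1 and 2, sheath replicates 1 and 5 and interfollicular replicates 1 and 2. That of Mylk was lost without papilla replicate 2 or interfollicular replicate 1 or 2 (0.081 to 0.115).

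Sheath was higher than interfollicular dermis in 5 of 31 members and lower in none, where 2.26% of all genes tested were called, 0.939% and 1.32% in these directions, and 12 members were higher and 1 lower at an unadjusted p under 0.05. They were Tagln (2.84, SE 0.53, adjusted p = 0.014), Smtn (1.90, SE 0.30, adjusted p = 0.0059), Myl9 (1.89, SE 0.39, adjusted p = 0.024), Tpm1 (1.71, SE 0.29, adjusted p = 0.0084) and Cald1 (1.33, SE 0.28, adjusted p = 0.027). Smtn alone was called under all alternatives run. The count fell to 3 without sheath replicate 5 and to 2 without interfollicular replicate 1. Cald1 was lost without sheath replicate 1, 4 or 5 or any 1 interfollicular library (adjusted p 0.063 to 0.121), Myl9 without sheath replicate 4 or 5 or interfollicular replicate 1 or 6 (0.057 to 0.121), Tagln without interfollicular replicate 1 (0.085) and Tpm1 without sheath replicate 5 (0.051). With the replicate number as a block Cald1 (0.20) and Tpm1 (0.066) were lost and Actg2 (2.06, adjusted p = 0.048) was gained.

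Wider lists set these genes beside others of the cytoskeleton and of contraction. Of 23 tested paralogs and partners, 9 were higher in stem cells than in papilla and 0 lower, with 14 and 0 at an unadjusted p under 0.05, where 6.38% of all genes tested were called higher and 2.31% lower. The largest differences were those of Palld (palladin, 2.49, adjusted p = 0.0013), Nexn (nexilin, 2.44, adjusted p = 0.0054), Fhl2 (2.0, adjusted p = 0.0011) and Fhl1 (1.86, adjusted p = 0.0068), which bind actin or the proteins on it. Palld was at 63.6, 64.2 and 66.2 FPKM in stem cells and at 27.2 or less in all other libraries.

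Genes that signal to the contractile apparatus were less uniform. Of 12 tested genes for calcium handling, receptors and cyclic GMP signalling, 4 were higher in stem cells than in papilla and 0 lower (5 and 0 at an unadjusted p under 0.05), against the same 6.38% and 2.31% of all genes. Ednra, an endothelin receptor, was at 60.9, 37.2 and 64.3 FPKM in stem cells and 3.05, 8.03 and 11.8 in papilla (2.79, adjusted p = 0.0013). Ednrb, the other endothelin receptor, was at 338, 364 and 256 against 72.6, 53.4 and 38.2 (2.56, adjusted p = 0.0024). The other 2 were Adra1a (1.39, adjusted p = 0.035), an adrenergic receptor, and Irag1 (1.38, adjusted p = 0.030), a substrate of the cyclic GMP kinase listed under its older name Mrvi1.

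In the membrane complex, 2 of 8 tested genes were higher in stem cells, Itga8 (2.49, adjusted p = 0.0084) and Sgcb (1.01, adjusted p = 0.013), a sarcoglycan, and 0 lower, against the same 6.38% and 2.31%. At an unadjusted p under 0.05, 4 of the 8 were higher and 1 was lower.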

How the data were processed

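The authors deposited 1 table of FPKM values, with a column for each of the 12 libraries. Per the submitters' processing notes, TopHat2 2.0.13, SAMtools, Cufflinks 2.2.1 and the mm10 build were used, with no roles or parameters given, and RNA was sequenced as SOLiD libraries per the labels' protocols. The annotation and any filter are not given in the sources used here. Read numbers are unknown, and intervals for counting error cannot be formed. A depth relative to 1 library, read from the lowest values ran from 0.633 (papilla replicate 4) to 1.92 (interfollicular replicate 6) (stem cell replicate 2 as 1). Sums of FPKM ran from 181683 to 262695.

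The 12774 genes that reached 1 FPKM in 3 or more libraries entered limma 3.58.1 (R 4.3.3) as log2(FPKM + 1): 4 population means in 1 fit of all 12 libraries, empirical Bayes with a trend (8 residual and 4.62 prior degrees of freedom), 6 two-sided contrasts and an F test, with Benjamini-Hochberg adjustment over all tested genes. A test on simulated data recovered most of the changes put in. The members and lists were chosen with earlier results of these data known. All 32 members are named, and from the wider lists up to 4 genes with the largest differences among those called between stem cells and papilla, plus Actb and Actg1. The result of 1 of the wider lists is not reported here. Symbols that had changed were matched by their older form in 5 cases, and Cavin1 was not matched. Promoters and positions are from RefSeq (GRCm38.p6, the assembly of mm10).

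Same-numbered stem cell and papilla libraries deviated together (correlations 0.306, 0.241 and 0.389 for numbers 1, 2 and 4, against -0.333 to 0.125 for other pairs). This pairing is a hint from the data, since the labels do not state what a number shares. Deviations were taken from the mean of each population, which ties the correlations of different pairs together. The contrast with other pairs is thus partly built in. Alternatives were another pseudocount, filters, scalings, trend settings, fits of only the populations compared, the replicate block and leaving out libraries.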

Additional observations from a re-analysis of the deposited data

How the results depend on the processing

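The counts of members called were within 1.5 times their main value except as follows and for 3 of the fits that left out 1 library. Sheath against interfollicular dermis, with 5 calls, gave 2 without a filter and 3 with stem cell replicate 4 alone. Papilla against interfollicular dermis, with 8, gave 14 by median of ratios and 13 with the replicate block. With stem cell replicate 4 alone, papilla against stem cells gave 8 instead of 23, sheath against stem cells 13 instead of 23, and genes higher in stem cells than in each other population 7 instead of 20; fewer libraries and fewer members (28) entered that fit. With papilla replicate 4 alone, papilla against sheath gave 6 instead of 11. Without sheath replicate 5 that comparison gave 7 and sheath against interfollicular dermis 3, and without interfollicular replicate 1 the latter gave 2. Leaving out 1 library at a time gave 17 to 24 calls for papilla against stem cells, 19 to 24 for sheath against stem cells, 24 to 27 for interfollicular dermis against stem cells, 7 to 13 for papilla against sheath, 6 to 11 for papilla against interfollicular dermis, 2 to 6 for sheath against interfollicular dermis, 24 to 27 for the F test and 15 to 21 for genes higher in stem cells than in each other population. The direction of Myocd, which was not called, turned without papilla replicate 1 (stem cells minus papilla -0.10, in a range up to 0.55 on leaving out 1 library) and with papilla replicate 4 alone (-0.37). The causes were not tested.

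With the replicate number as a block, 21 members were called for papilla against stem cells, 21 for sheath against stem cells, 26 for interfollicular dermis against stem cells, 10 for papilla against sheath, 13 for papilla against interfollicular dermis, 4 for sheath against interfollicular dermis and 28 by the F test. For papilla against stem cells, the blocked fit used only the 6 libraries of these populations. Over all genes it gave 658 calls, against 512 in those 6 libraries without the block and 1110 in the main fit. Sheath replicate 5 and interfollicular replicate 6 have numbers that no other library shares and add nothing to the blocked fits. The calls that differed in the blocked fits are given beside their results.

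Since read numbers are unknown, genes near 1 FPKM, such as Myocd and Kcnmb1, are described with more doubt than abundant ones.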

Other observations

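Of the 10 markers of pericytes and vessel wall cells, 2 were higher in stem cells than in papilla and none was lower (limma; 3 and 2 at an unadjusted p under 0.05), where 6.38% and 2.31% of all genes tested were called. They were Mcam (2.91, SE 0.28, adjusted p = 0.00010), an adhesion molecule of muscle and vessel cells, and Cspg4 (1.83, SE 0.40, adjusted p = 0.015), a proteoglycan of pericytes, both named after their values were seen. Mcam was at 76.9, 77.4 and 70.6 FPKM in stem cell replicates 1, 2 and 4, at 7.26 to 11.6 in papilla and at 4.64 to 28.6 in the other libraries. Of the 8 endothelial markers, none was called between stem cells and papilla, also at an unadjusted p under 0.05, with differences from -0.40 to 0.75. The summed Schwann cell markers were at 9.78 to 17.7 FPKM in stem cells and 26.3 to 108 in papilla, and the melanocyte markers at 16.2 to 86.1 and 186 to 787.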
